A study of Mus musculus with 23 samples.

Results

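The insulin-like growth factor (IGF) system was described through 10 of the 54347 genes in the deposited table: the ligands Igf1 and Igf2, the receptors Igf1r and Igf2r, and the binding proteins Igfbp2, Igfbp3, Igfbp4, Igfbp5, Igfbp6 and Igfbp7. They were chosen by name and found by their Ensembl identifiers, and all 10 were present and passed the filter on low counts. RNA came from the labial cervical loop, where the labial epithelium of the ever-growing lower incisor folds at its base, of mice at postnatal day 2. All mice were of the Sox2-GFP line, in which the promoter of Sox2 itself drives green fluorescent protein, and no other allele or agent is named in the labels. Dissociated cells were sorted by fluorescence into Sox2-positive cells, called dental epithelial stem cells by the submitters, and Sox2-negative cells, which hold everything else in the dissected tissue. Batch A gave 6 libraries of each population, and batch B gave 4 Sox2-negative and 7 Sox2-positive libraries; the batches were run on different days from different mice, and batch by population makes 4 groups. How many mice stood behind each library is not given, so n counts libraries, and p-values measure only the spread between them, which may be technical.

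IGF ligands are secreted growth factors that act on nearby cells and through the blood. Igf1r is the tyrosine kinase receptor that passes both ligands' signal to the insulin receptor substrates, PI3 kinase and Akt. Igf2r carries Igf2 to the lysosome and so removes it. The binding proteins are secreted, hold the ligands outside the cell and can restrain or prolong their action. In teeth, IGF ligands are known for effects on the growth of the dental epithelium and mesenchyme.

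Total estimated counts ran from 2305778 to 9541443 per library, with a median of 4831091. Levels are given in CPM, counts per 1000000 of the normalised library total, and 3 counts, taken as the detection floor, correspond to 0.357 to 1.30 CPM. This floor covers counting error only. Sox2 followed the sort: it was at 0 in 8 of 10 Sox2-negative libraries, reached 1 and 10 counts in the others, and lay between 14 and 121 counts in every Sox2-positive library. Among listed marker genes of cell types, 8 of 8 epithelial genes were called higher in Sox2-positive cells over both batches, and 10 of 10 mesenchymal and 6 of 6 endothelial genes were called lower. Of the glial markers 5 of 6 were called higher and 1 lower, and of the 5 ameloblast markers tested, which mark mature dental epithelium, 1 was called higher and 4 lower. Batch B libraries numbered 1 and 2 stood apart from the rest of their group in several of the IGF genes. Results that changed without them are given both ways. Fits without them keep only libraries 3 and 4 of the batch B Sox2-negative cells, so a call can be lost with little change in size.

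Most of the IGF genes were lower in Sox2-positive cells over both batches, and Igfbp2 was higher. Calls were made at an adjusted p under 0.05. With batch as a covariate, 8 of the 10 genes were called (1 higher, 7 lower, 2 not called), against 57.5% of the 17190 genes tested, made up of 24.9% higher and 32.5% lower. The median log2 fold change of the 10 was -1.64, and that of all genes tested was -0.118, which total-count scaling moved to 0.003. Igfbp2 rose by 3.34 (SE 0.126, edgeR adjusted p 3.58e-18). Igf1, Igf2, Igf2r, Igfbp4, Igfbp5, Igfbp6 and Igfbp7 fell, and these 8 genes kept their direction and call in each batch alone; 32.8% of 13990 genes tested in all 3 fits did so. In batch A alone 9 of 10 were called (1 higher, 8 lower), with 43.4% of all genes tested (19.3% higher, 24.2% lower), and Igf1r was the exception. Batch B by itself also gave 9 of 10 (1 higher, 8 lower), with 54.7% of all genes (27.1% higher, 27.6% lower), and Igfbp3 was the exception. The libraries of the populations did not overlap for 6 of the 10 in batch A and for 8 of the 10 in batch B, against 25.2% and 36.4% of all genes.

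**Figure D1:**
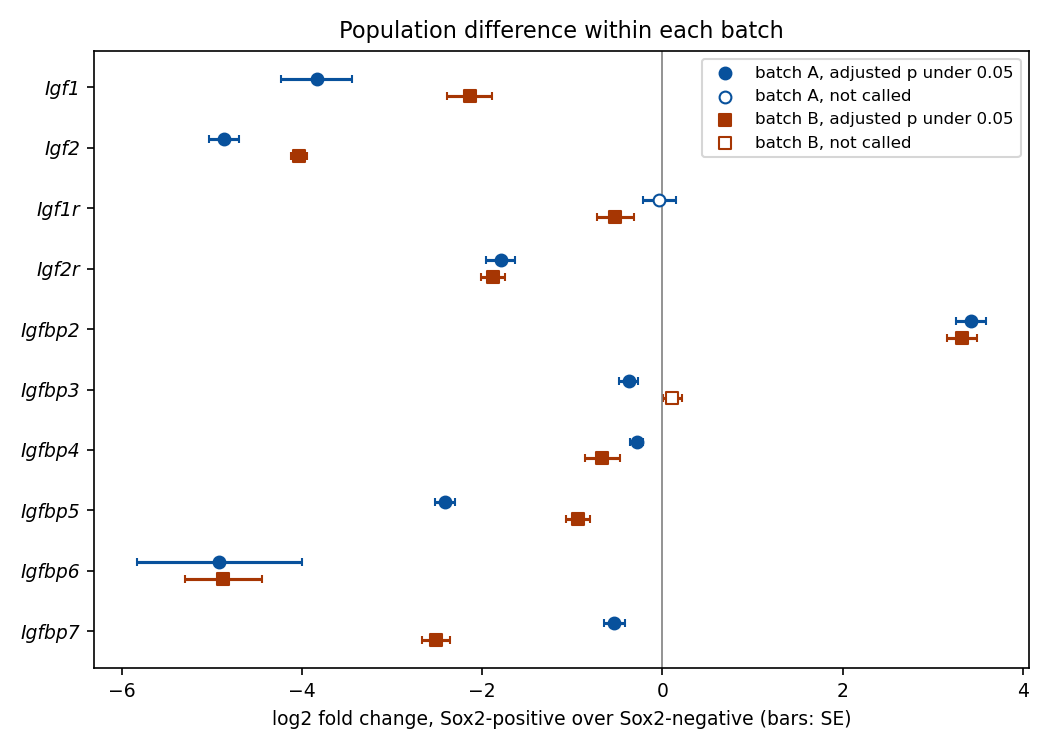
The log2 fold change of Sox2-positive over Sox2-negative cells is plotted for each of the 10 genes, as fitted in batch A (circles) and in batch B (squares), with bars of 1 standard error. Filled symbols passed an adjusted p under 0.05; Igfbp2 lies to the right of 0 and Igf1, Igf2, Igf2r, Igfbp4, Igfbp5, Igfbp6 and Igfbp7 to the left in both batches.

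Both ligands were far lower in Sox2-positive cells. Igf2 (ENSMUSG00000048583.16, GRCm38 chr7:142650766-142666816, minus strand) is the imprinted ligand of fetal and early postnatal growth. In batch A it ranged from 1050 to 1325 CPM in Sox2-negative libraries, with a median of 1176, and from 28.0 to 57.4 CPM in Sox2-positive libraries, with a median of 38.3. Batch B Sox2-negative libraries 1 to 4 had 1948, 2059, 1744 and 1879 CPM. The batch B Sox2-positive libraries ran from 98.5 to 121 CPM, with a median of 108. No library of one population came near the other, and the Sox2-positive mean was 3.41% of the Sox2-negative mean in batch A and 5.80% in batch B. The fitted log2 difference was -4.87 (SE 0.162, edgeR adjusted p 1.87e-12) in batch A and -4.03 (SE 0.0902, edgeR adjusted p 1.17e-14) in batch B.

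Igf1 (ENSMUSG00000020053.18, GRCm38 chr10:87858265-87937042, plus strand) is the ligand that growth hormone induces in many tissues. Its batch A Sox2-negative libraries lay between 132 and 253 CPM (median 227), and its batch A Sox2-positive libraries between 4.65 and 32.1 CPM (median 10.6). In batch B the Sox2-negative libraries 1 to 4 had 144.5, 126, 215 and 143 CPM, and the Sox2-positive libraries ran from 19.8 to 54.5 CPM (median 31.2). The populations were again separate in both batches, but Igf1 varied more between libraries of a group than Igf2, with an SD of 10.3 on a mean of 14.3 CPM in batch A Sox2-positive cells. Igf1 fell by 3.83 on the log2 scale (SE 0.395, edgeR adjusted p 1.13e-06) in batch A and fell by 2.14 (SE 0.249, edgeR adjusted p 2.66e-06) in batch B.

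These are bulk libraries, in which fewer cells of a type and less RNA per cell cannot be told apart. Mesenchymal markers moved with both ligands and with the other IGF genes that fell. The summed level of the 10 markers was 12080 to 13720 CPM in batch A Sox2-negative and 1388 to 1993 CPM in batch A Sox2-positive libraries. It was 11310 to 14360 and 618.8 to 703.8 CPM in batch B. Twist1 was at 0 in every Sox2-positive library and Prrx2 at no more than 3 counts. Leukocyte markers moved too, from 383 to 587 CPM in Sox2-negative to no more than 12.1 CPM in Sox2-positive libraries of batch A, and from 105 to 175 CPM to no more than 0.424 CPM in batch B. Over both batches, 6 of 6 odontoblast and osteoblast, 6 of 6 endothelial and 6 of 6 erythroid markers were called lower as well. Of 5 pericyte and smooth muscle markers tested, 4 were called lower and 1 higher. Epithelial markers (8 of 8) and glial markers (5 of 6) were called higher. The part of any of these cells in the differences was not tested. Among Sox2-positive libraries the summed mesenchymal level was lower in batch B than in batch A, with 4 of 10 markers called lower and 6 not called. The summed pericyte and smooth muscle level was higher in batch B (410 to 447.5 CPM, against 87.3 to 133 CPM in batch A). Of these markers, 2 of 5 tested were called higher and 3 were not called. Igf2 and Igf1 were called higher in batch B, and the part of either cell type in this was not tested.

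H19, the noncoding RNA gene whose transcription shares an imprinted control region with Igf2, lies 72622 bases from Igf2 on chromosome 7. In batch A, H19 averaged 969.2 ± 62.9 CPM in Sox2-negative (SD, n = 6) and 135 ± 19.7 CPM in Sox2-positive libraries (n = 6). In batch B it averaged 2068 ± 40.0 CPM (n = 4) and 357 ± 90.1 CPM (n = 7). H19 fell as well, with a log2 fold change of -2.70 over both batches (SE 0.101, edgeR adjusted p 2.95e-18), beside -4.52 for Igf2 (SE 0.126, edgeR adjusted p 5.82e-21).

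The receptors behaved differently from each other. Igf2r (ENSMUSG00000023830.14, GRCm38 chr17:12682406-12769664, minus strand), the imprinted mannose 6-phosphate receptor that clears Igf2, was lower in Sox2-positive cells in both batches. Its batch A libraries lay between 103 and 161 CPM (median 145) in Sox2-negative and between 32.7 and 48.5 CPM (median 39.1) in Sox2-positive cells. In batch B, Sox2-negative libraries 1 to 4 had 172.5, 171.5, 159 and 194 CPM, and Sox2-positive libraries ran from 36.4 to 55.5 CPM (median 44.9). The populations did not overlap, and the Sox2-positive mean was 28.7% of the Sox2-negative mean in batch A and 25.8% in batch B. Igf2r fell by 1.79 on the log2 scale (SE 0.162, edgeR adjusted p 2.59e-07) in batch A and fell by 1.88 (SE 0.133, edgeR adjusted p 7.29e-09) in batch B. Airn, the antisense RNA of the Igf2r locus, overlaps it on the opposite strand without sharing exon bases and averaged 19.8 CPM.

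Igf1r (ENSMUSG00000005533.10, GRCm38 chr7:67952827-68233668, plus strand), the receptor kinase, had overlapping levels in all 4 groups. In batch A its libraries ran from 99.2 to 241 CPM (median 172.5) in Sox2-negative and from 119 to 191 CPM (median 167) in Sox2-positive cells. Batch B Sox2-negative libraries 1 to 4 had 227, 196, 185 and 374 CPM, and Sox2-positive libraries ran from 114 to 228 CPM (median 154.5). The populations overlapped in both batches, and library 4 was the high one among batch B Sox2-negative libraries. Igf1r was not called over both batches (log2 fold change -0.30, SE 0.155, edgeR adjusted p 0.0978) or in batch A (-0.03, SE 0.188, edgeR adjusted p 0.904), where 2 standard errors allow values from -0.41 to 0.344. Without batch A Sox2-negative library 5 the value over both batches was -0.37 and passed (edgeR adjusted p 0.0295).

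The call of Igf1r in batch B (log2 fold change -0.53, SE 0.205, edgeR adjusted p 0.0392) lay close to the threshold. It was lost when Sox2-negative library 4 was left out, which moved the value most (-0.24, edgeR adjusted p 0.284). It was lost too, at values of -0.57 to -0.45, without Sox2-negative library 1 (edgeR adjusted p 0.0508) or Sox2-positive library 1 (0.0699), 5 (0.0677), 6 (0.0626) or 7 (0.0712). It was also lost in limma-voom (-0.42, adjusted p 0.0791), with total-count scaling (-0.45, edgeR adjusted p 0.0734) and without both libraries 1 and 2 of each population (-0.67, edgeR adjusted p 0.0515).

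**Figure D2:**
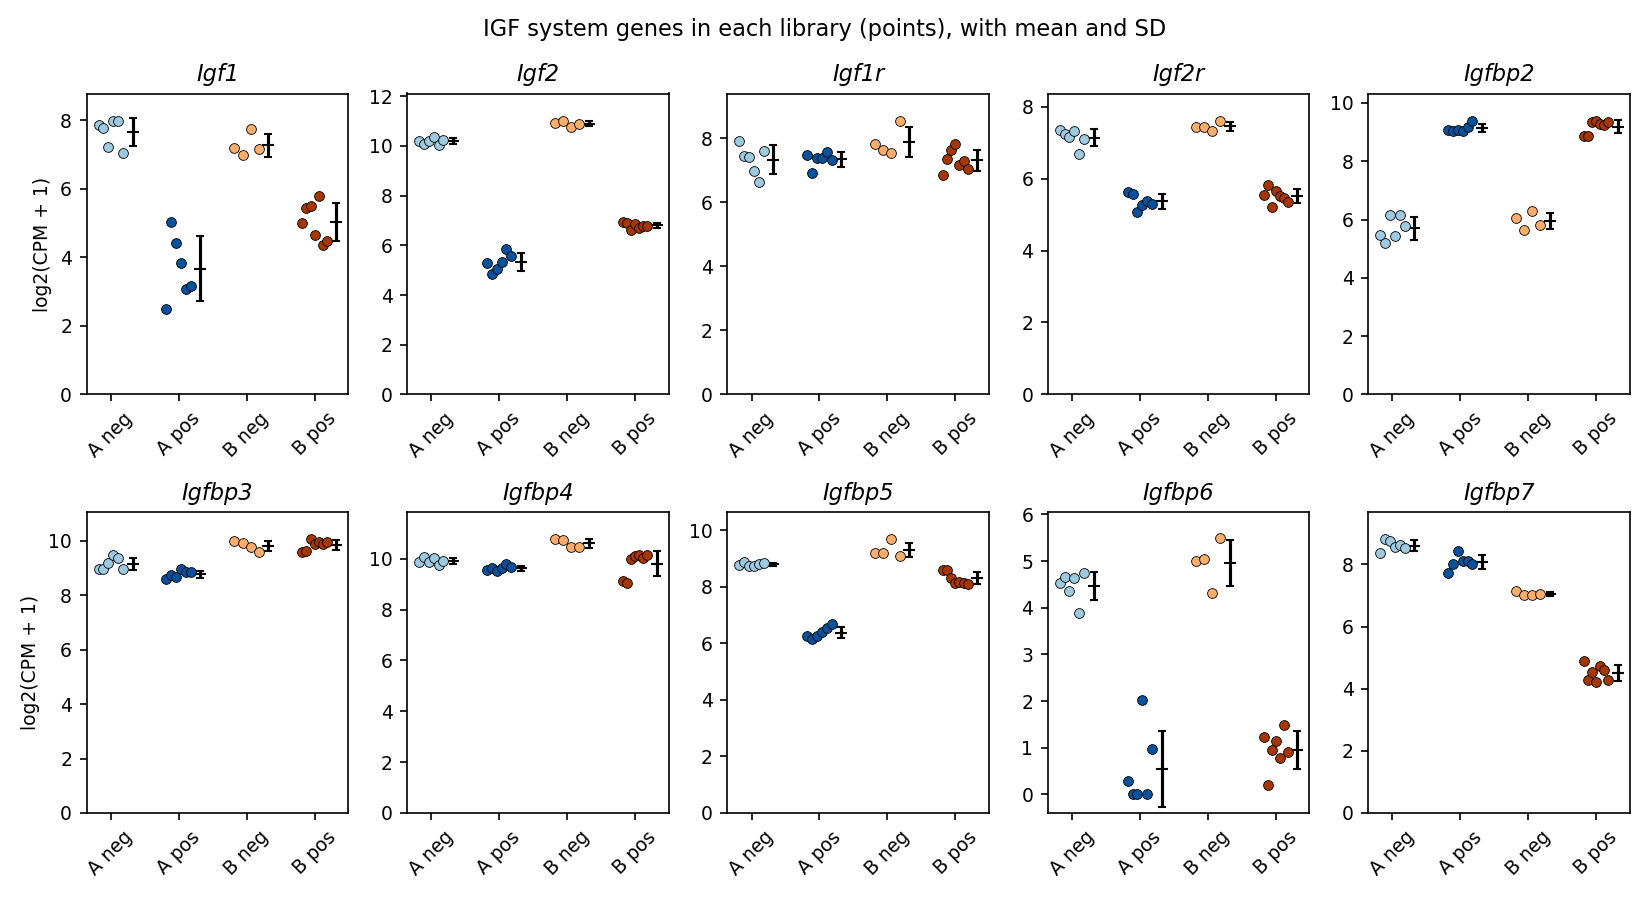
Each point is 1 library, on a log2(CPM + 1) scale, for the 4 groups of batch (A or B) and population (neg, Sox2-negative; pos, Sox2-positive); bars give the mean and SD of these log values. Igf1, Igf2, Igf2r, Igfbp5 and Igfbp6 sit lower and Igfbp2 higher in the Sox2-positive groups with no overlap in either batch, while Igf1r overlaps throughout.

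Igfbp2 and Igfbp5 are neighbours that went in opposite directions. Igfbp2 (ENSMUSG00000039323.18, GRCm38 chr1:72824503-72852474, plus strand) and Igfbp5 (ENSMUSG00000026185.8, GRCm38 chr1:72857932-72874884, minus strand) point at each other, with 5457 bases between their ends. Igfbp2 is a binding protein abundant in many developing epithelia, and Igfbp5 is one that binds extracellular matrix and bone mineral. Their promoter windows, the 250 bases before the RefSeq start (for Igfbp2 the first of 2) in GRCm38.p6 (chr1:72824230-72824479, plus strand, for Igfbp2 and chr1:72874866-72875115, minus strand, for Igfbp5), are shown because the pair shares a locus but not a direction; capitals mark GGGCGG, the GC box bound by Sp factors, on either strand.
Igfbp2: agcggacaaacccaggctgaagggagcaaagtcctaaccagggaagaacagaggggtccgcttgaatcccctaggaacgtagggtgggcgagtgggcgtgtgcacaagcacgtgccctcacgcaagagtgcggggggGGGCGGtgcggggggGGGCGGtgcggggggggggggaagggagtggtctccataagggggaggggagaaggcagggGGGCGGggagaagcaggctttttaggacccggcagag
Igfbp5: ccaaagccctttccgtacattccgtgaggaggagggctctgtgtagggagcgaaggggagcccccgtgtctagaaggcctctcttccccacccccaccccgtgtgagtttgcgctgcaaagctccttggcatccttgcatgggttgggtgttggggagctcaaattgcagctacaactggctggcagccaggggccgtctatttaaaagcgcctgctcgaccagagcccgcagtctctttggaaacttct
On both strands, GGGCGG was found in 32.7% of 32851 promoter windows of this length, the TATA box letters TATAAA in 12.4% and the letters CCAAT in 33.8%. The Igfbp2 window held 3 GC boxes, the nearest 37 bases before the start, and neither of the other motifs. The Igfbp5 window, whose last bases lie inside the GENCODE span given above, held none of the 3 in these exact letters. The second Igfbp2 window held 0 GC boxes. Among other IGF genes that fell, the windows of Igf2r and Igfbp7 held 3 and 4 GC boxes. Those of Igf2 held 0 to 2, and those of Igf1, Igfbp4 and Igfbp6 held 0. CpG pairs numbered 14 in the first Igfbp2 window and 10 in the Igfbp5 window, against a median of 6 over the 32851 windows. No factor's binding was measured in these libraries.

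Igfbp2 was the IGF gene that rose in Sox2-positive cells. In batch A it ran from 35.5 to 69.9 CPM (median 48.6) in Sox2-negative and from 520 to 667 CPM (median 538) in Sox2-positive libraries. Batch B Sox2-negative libraries 1 to 4 had 64.9, 48.8, 77.1 and 55.2 CPM, and Sox2-positive libraries ran from 462 to 657 CPM (median 613). Every Sox2-positive library was above every Sox2-negative one, by 10.7-fold on the means in batch A and 9.55-fold in batch B. On the log2 scale Igfbp2 rose by 3.42 (SE 0.17, edgeR adjusted p 2.02e-10) in batch A and by 3.33 (SE 0.169, edgeR adjusted p 1.28e-10) in batch B. The 8 epithelial markers moved with it: their summed level was 212 to 330 CPM in batch A Sox2-negative and 4060 to 4501 CPM in batch A Sox2-positive libraries, and 439 to 518 and 4362 to 6634 CPM in batch B. The summed level of the 6 glial markers moved with it in batch A, from 24.2 to 59.0 CPM in Sox2-negative to 774 to 982 CPM in Sox2-positive libraries. In batch B the sums overlapped, at 34.5 to 51.1 and 37.8 to 72.2 CPM, while of 5 glial markers tested 4 were called higher and 1 lower. Ameloblast markers went the other way, from 746.5 to 939.7 CPM in Sox2-negative to 293 to 349 CPM in Sox2-positive libraries of batch A, and from 596 to 712 CPM to 9.80 to 17.3 CPM in batch B. What part any of these cells had in the Igfbp2 difference was not tested.

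Igfbp5 fell in Sox2-positive cells, and by more in batch A. Its batch A libraries ran from 421 to 467.5 CPM (median 446) in Sox2-negative and from 70.5 to 101 CPM (median 79.0) in Sox2-positive cells. In batch B, Sox2-negative libraries 1 to 4 had 588, 587, 817 and 547 CPM, and Sox2-positive libraries ran from 275 to 386 CPM (median 289.5). The populations stayed apart in both batches, but the Sox2-positive mean was 18.7% of the Sox2-negative mean in batch A and 49.8% in batch B. On the log2 scale the difference was -2.41 (SE 0.108, edgeR adjusted p 5.11e-11) in batch A and -0.93 (SE 0.134, edgeR adjusted p 2.34e-05) in batch B.

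Igfbp3 and Igfbp4 were abundant in both populations. Igfbp3 (ENSMUSG00000020427.11, GRCm38 chr11:7206086-7213923, minus strand) is the main carrier of IGFs in serum. In batch A it ran from 493 to 714 CPM (median 541) in Sox2-negative and from 389 to 494 CPM (median 443) in Sox2-positive libraries, which overlapped slightly. The 4 Sox2-negative libraries of batch B, in order, had 1010, 981, 865 and 770 CPM, and Sox2-positive libraries ran from 777 to 1063 CPM (median 956). Igfbp3 fell in batch A (log2 fold change -0.38, SE 0.106, edgeR adjusted p 0.00904) and was not called in batch B (0.11, SE 0.11, edgeR adjusted p 0.409) or over both batches (-0.19, SE 0.0895, edgeR adjusted p 0.0681). Igfbp1, the liver-type binding protein 3539 bases from Igfbp3, did not exceed 4 counts in any library.

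Igfbp4 (ENSMUSG00000017493.12, GRCm38 chr11:99041244-99054392, plus strand) is the binding protein that the protease Pappa cleaves to release IGF. In batch A it ran from 873.5 to 1066 CPM (median 949) in Sox2-negative and from 734 to 881 CPM (median 790) in Sox2-positive libraries. In batch B, Sox2-negative libraries 1 to 4 had 1741, 1689, 1408 and 1412 CPM, and the Sox2-positive libraries ran from 530 to 1131 CPM (median 1060). The populations overlapped in batch A and were separate in batch B. Igfbp4 fell in batch A (log2 fold change -0.28, SE 0.0713, edgeR adjusted p 0.00416) and in batch B (-0.67, SE 0.195, edgeR adjusted p 0.00841). With no filter on low counts the batch A value was -0.22 and did not pass (edgeR adjusted p 0.0733).

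Libraries 1 and 2 of batch B stood apart for these genes. Among batch B Sox2-positive libraries, Igfbp4 stood at 552 and 530 CPM in libraries 1 and 2 and at 1028 to 1131 CPM in the other 5. Igfbp3 stood at 777 and 781 against 951 to 1063 CPM, Igfbp2 at 468.5 and 462 against 604.5 to 657 CPM, and Igfbp5 at 386 in both against 275 to 318 CPM. So libraries 1 and 2 were low for Igfbp2, Igfbp3 and Igfbp4 and high for Igfbp5. In the Sox2-negative cells of batch B the same numbers were high for Igfbp4 (1741 and 1689 against 1408 and 1412 CPM) and for Igfbp3 (1010 and 981 against 865 and 770 CPM). Without libraries 1 and 2 of both populations the batch B log2 fold change of Igfbp4 was -0.34 (edgeR adjusted p 0.000824). That of Igfbp3 was 0.31 and passed (edgeR adjusted p 0.00505), and that of Igfbp5 was -1.21 (edgeR adjusted p 2.22e-05).

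**Figure D3:**
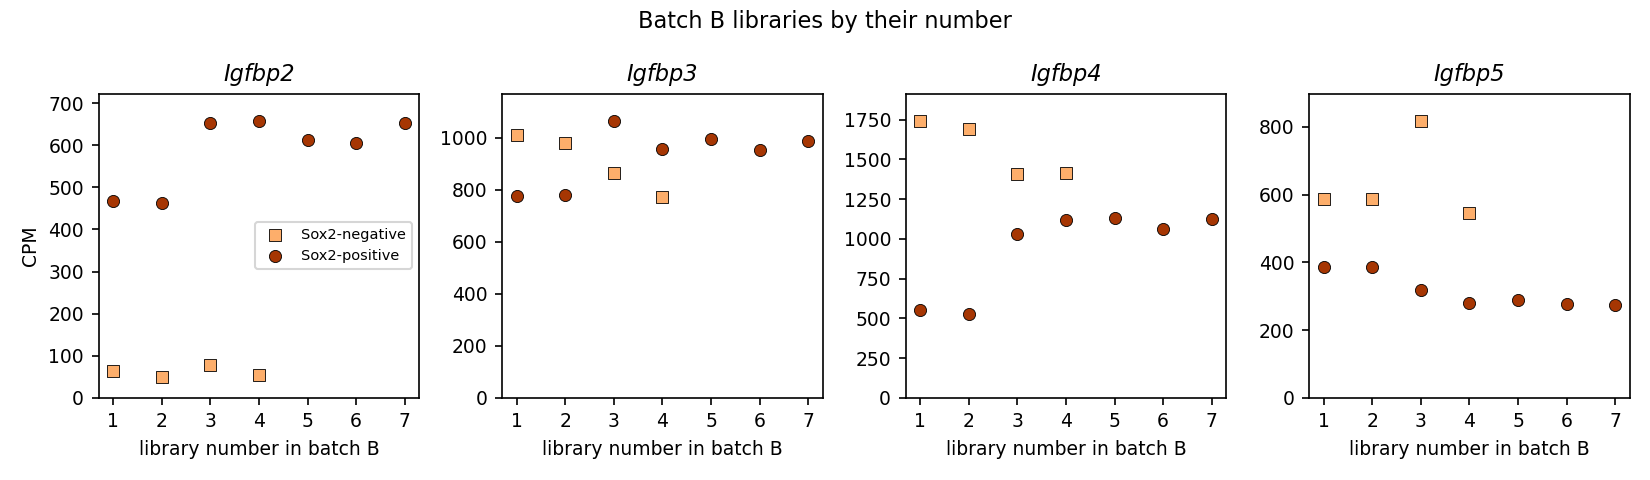
CPM of Igfbp2, Igfbp3, Igfbp4 and Igfbp5 is plotted for each batch B library by its number, for Sox2-negative (squares, 4 libraries) and Sox2-positive cells (circles, 7 libraries). In Sox2-positive cells libraries 1 and 2 are the lowest for Igfbp2, Igfbp3 and Igfbp4 and the highest for Igfbp5. Whether equal numbers in the 2 populations mark pairs is not known.

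Igfbp6 was near the detection floor in Sox2-positive cells. Igfbp6 (ENSMUSG00000023046.6, GRCm38 chr15:102144362-102149511, plus strand) is the binding protein that prefers Igf2 over Igf1. It ran from 13.9 to 25.8 CPM (median 22.9) in batch A Sox2-negative libraries. Among the 6 batch A Sox2-positive libraries it had 20 counts in all, 13 of them in library 4, and 3 libraries were at 0. Batch B Sox2-negative libraries 1 to 4 had 30.9, 32.1, 18.9 and 44.4 CPM, and Sox2-positive libraries ran from 0.141 to 1.82 CPM with 34 counts in all. The populations did not overlap, and most Sox2-positive values lay near the floor of 3 counts. The fitted log2 difference was -4.92 (SE 0.915, edgeR adjusted p 0.000417) in batch A, where it was -6.27 without Sox2-positive library 4, and -4.87 (SE 0.43, edgeR adjusted p 1.16e-07) in batch B.

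Igfbp7 varied most between batches. Igfbp7 (ENSMUSG00000036256.13, GRCm38 chr5:77349240-77408041, minus strand) is a distant relative of the other binding proteins with low affinity for IGFs, and is known as abundant in blood vessels. In batch A it ran from 330 to 447 CPM (median 385) in Sox2-negative and from 210 to 342 CPM (median 266.5) in Sox2-positive libraries, which overlapped. In batch B the Sox2-negative libraries had 140, 129, 129.5 and 130.5 CPM, and Sox2-positive libraries ran from 17.7 to 28.8 CPM (median 22.2), well apart. The fitted log2 difference was -0.53 (SE 0.115, edgeR adjusted p 0.00147) in batch A and -2.51 (SE 0.155, edgeR adjusted p 1.37e-09) in batch B. Exons of Igfbp7 overlap those of Polr2b on the opposite strand, and the counting is not stated to use strand, so reads of these genes cannot be told apart there; Polr2b averaged 60.2 CPM.

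Levels of different genes were compared per kilobase (kb) of exon sequence, taken as the union of exons over all annotated transcripts of a gene. This length ran from 1112 bases for Igfbp6 to 16791 for Igf1r, may exceed that of the transcripts present, and the orders below depend on it. On the scale of CPM per kb, Igfbp7 was the highest of the 10 genes in batch A Sox2-negative cells at 324 ± 36.4 (SD, n = 6). Igfbp4 (220 ± 17.3), Igf2 (205 ± 17.4) and Igfbp3 (183 ± 30.0) followed with overlapping libraries. In batch B Sox2-negative cells Igfbp4 (354 ± 40.1, n = 4), Igf2 (333 ± 23.1) and Igfbp3 (290 ± 35.3) came first and each overlapped the next. Igfbp2 came first in Sox2-positive cells, at 304 ± 29.8 (n = 6) in batch A, where the libraries of Igfbp7 (223 ± 35.2) overlapped it, and at 318 ± 46.5 (n = 7) in batch B, where those of Igfbp3 (297 ± 35.1) did. Igf1r, at 9.71 ± 1.43 and 9.64 ± 2.35 CPM per kb in the Sox2-positive cells of batches A and B, had the lowest mean of the 10 genes in both Sox2-negative groups, where its libraries overlapped those of the next gene (Igf2r in batch A, Igf1 in batch B). In both Sox2-positive groups the means of Igf2r, Igf1 and Igfbp6 were below it.

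The summed level of the 6 binding proteins overlapped between the 4 groups, while the share of Igfbp2 in it was separate between the populations. In Sox2-negative cells the sum was 848 ± 54.4 CPM per kb in batch A (SD, n = 6) and 920.1 ± 69.5 in batch B (n = 4), and in Sox2-positive cells 861 ± 55.8 (n = 6) and 898.5 ± 132 (n = 7), with overlapping ranges. Igfbp2 made up 3.35% ± 0.908 and 3.63% ± 0.777 of it in the Sox2-negative cells of batches A and B, and 35.3% ± 2.53 and 35.4% ± 0.785 in the Sox2-positive cells. Igfbp7 took 38.1% ± 2.63 and 11.9% ± 0.751 in the Sox2-negative cells of batches A and B, and 25.8% ± 3.33 and 2.08% ± 0.61 in the Sox2-positive cells. Igfbp3 took 21.6% and 31.4%, then 16.3% and 33.2%, in the same order. The libraries' shares of Igfbp2 were separate between the populations and overlapped between the batches, and those of Igfbp3 were separate between the batches in each population. These shares are descriptions with no test, and follow from the levels above.

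**Figure D4:**
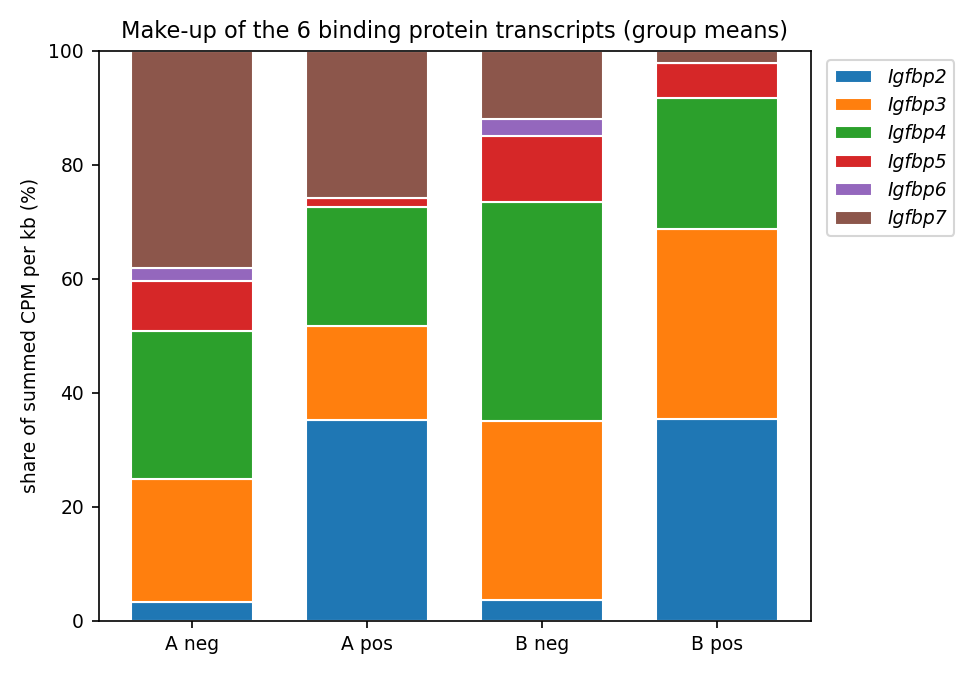
Stacked bars give the mean share, in percent, of each of 6 binding protein genes in their summed CPM per kb for the 4 groups (6, 6, 4 and 7 libraries). Igfbp2 makes up 3.35% and 3.63% in the Sox2-negative groups and 35.3% and 35.4% in the Sox2-positive groups, and Igfbp7 drops from 38.1% to 2.08% across the groups.

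The population difference itself was compared between the batches with an interaction term, the value in batch B minus that in batch A. It passed for 4 of the 10 genes (3 with a larger and 1 with a smaller value in batch B), against 7.04% of 17190 genes (2.82% larger, 4.22% smaller). For Igfbp5 it was 1.42 (SE 0.173, edgeR adjusted p 4.07e-06) and for Igf2 0.77 (SE 0.173, edgeR adjusted p 0.00578), so both genes were less reduced in batch B. For Igfbp7 it was -2.04 (SE 0.184, edgeR adjusted p 2.49e-08). The value for Igf1 was 1.64 (SE 0.49, edgeR adjusted p 0.0409). That call was lost when any 1 of 15 libraries was left out: Sox2-negative 1, 2, 4 or 5 and Sox2-positive 1, 4, 5 or 6 of batch A, and Sox2-negative 1, 2 or 4 and Sox2-positive 1, 2, 3 or 5 of batch B (values 1.48 to 1.65, edgeR adjusted p 0.0509 to 0.0932). Without batch B libraries 1 and 2, a fit with fewer libraries, neither Igf2 nor Igf1 was called. The interaction was then 0.78 for Igf2 (edgeR adjusted p 0.0545), close to the 0.77 with all libraries, and 1.38 for Igf1 (edgeR adjusted p 0.314). That of Igfbp3 was then 0.65 and passed (edgeR adjusted p 0.0323), against 0.42 (edgeR adjusted p 0.106) with all libraries.

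Within each population, 5 of the 10 genes were called between the batches. In Sox2-negative cells Igf2 (log2 fold change of batch B over batch A 0.70), Igfbp3 (0.66), Igfbp4 (0.69) and Igfbp5 (0.52) were higher and Igfbp7 (-1.56) lower in batch B (edgeR adjusted p 3.32e-08 to 0.0077), against 11.2% of all genes called (5.85% higher, 5.35% lower; 1005 and 919 genes, or 661 and 1388 with total-count scaling). Total-count scaling moved the median of all genes in this comparison from -0.004 to -0.152, and Igfbp5 was then not called (0.37, edgeR adjusted p 0.0607). In Sox2-positive cells Igf1 (1.24), Igf2 (1.47), Igfbp3 (1.08) and Igfbp5 (1.93) were higher and Igfbp7 (-3.61) lower in batch B (edgeR adjusted p 5.99e-17 to 0.0137), against 10.4% of all genes (4.85% higher, 5.54% lower; 833 and 952 genes, or 666 and 1214 with total-count scaling). Without batch B libraries 1 and 2, Igf1 no longer passed in Sox2-positive cells (1.18, edgeR adjusted p 0.0685) and Igfbp4 did (0.45, edgeR adjusted p 4.06e-05). Igf1r, Igf2r, Igfbp2 and Igfbp6 were not called between batches in either population. Batch, day and mice cannot be told apart in these comparisons, and the 2 populations' comparisons share the fit but no libraries.

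Markers of several cell types moved with batch. In Sox2-negative cells the summed level of 6 endothelial markers was 868 to 1272 CPM in batch A and 226.5 to 373 CPM in batch B, and 6 of 6 were called lower in batch B, as Igfbp7 was. In Sox2-positive cells, where Igfbp7 was 12.2-fold lower in batch B, these markers summed to 19.7 to 35.4 CPM in batch A and 17.3 to 34.4 CPM in batch B, with overlapping ranges, and Cdh5 and Emcn did not exceed 3 counts. The 6 glial markers summed to 774 to 982 CPM in batch A and 37.8 to 72.2 CPM in batch B Sox2-positive libraries, with 6 of 6 called lower. The 7 ameloblast markers summed to 293 to 349 CPM and 9.80 to 17.3 CPM there, with 4 of 5 tested called lower. Pericyte and smooth muscle markers summed to 87.3 to 133 CPM in batch A and 410 to 447.5 CPM in batch B Sox2-positive libraries, with 2 of 5 tested called higher. The 6 erythroid markers summed to 983 to 1175 CPM in batch A and 53600 to 62030 CPM in batch B Sox2-negative libraries, with 5 of 6 called higher. Leukocyte markers in Sox2-negative libraries summed to 383 to 587 CPM in batch A and 105 to 175 CPM in batch B. Of these, 4 of 6 were called lower, as Igfbp7 was. Epithelial markers in Sox2-negative libraries summed to 212 to 330 CPM in batch A and 439 to 518 CPM in batch B, with 3 of 8 called higher. What part any of these cells had in the batch differences of the IGF genes was not tested.

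Genes on either side of the receptor were read from a list of 51 partners, proteases, adaptors and downstream genes of the pathway. Of 46 that could be tested over both batches, 5 were called higher and 19 lower in Sox2-positive cells and 22 were not called, and their median log2 fold change was -0.59. In that comparison 57.5% of all genes were called (24.9% higher, 32.5% lower), so the number of pathway genes called in either direction was not above the background. By direction, the lower calls (19 of 46) were above their share of all genes and the higher calls (5 of 46) below it. This skew was not tested. In batch A alone 3 of 41 were higher and 10 lower, where 19.3% and 24.2% of all genes were. In batch B 6 of 45 were higher and 20 lower, where 27.1% and 27.6% of all genes were. Of the 41 tested in batch A, all but Stc2 could also be tested in batch B. Of these, 11 were called with 1 sign in all 3 fits (2 higher, 9 lower), against 32.8% of the 13990 genes tested in all 3 (14.6% higher, 18.2% lower). The counts of the arms are read against the same 57.5%, and nothing particular to an arm is drawn from them. Among the adaptors that bind the activated receptor, 2 of 10 fell and 8 were not called. In the PI3 kinase, Akt and TOR arm, 3 of 18 rose, 8 fell and 7 were not called, and in the FOXO arm 2 of 4 fell.

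Grb10, an imprinted adaptor that restrains the receptor, showed the lowest value of the list, with a log2 fold change of -5.10 (SE 0.467, edgeR adjusted p 5.78e-10). Its batch A mean was 502 ± 61.0 CPM in Sox2-negative (SD, n = 6) and 45.8 ± 27.2 CPM in Sox2-positive libraries (n = 6), and in batch B 608 ± 126 CPM (n = 4) and 3.97 ± 2.81 CPM (n = 7). Among the genes called in all 3 fits, Grb14, a related adaptor, came next after Grb10 and H19 at -2.43 (SE 0.469, edgeR adjusted p 7.93e-05); in batch B alone it was not called without libraries 1 and 2 (-2.57, edgeR adjusted p 0.0602). Pik3r2, a regulatory subunit of PI3 kinase, rose by 1.58 (SE 0.175, edgeR adjusted p 1.85e-08), and Igf2bp3, which binds Igf2 messenger RNA, rose by 1.30 (SE 0.175, edgeR adjusted p 5.42e-07). Chosen after their values were seen, the proteases Pappa (-4.59) and Pappa2 (-4.70), which cleave binding proteins, were called lower over both batches, and Igfals (4.70), which forms the serum complex with Igfbp3 or Igfbp5, was called higher (edgeR adjusted p 2.17e-05, 8.09e-05 and 8.24e-05). These 3 could not be tested in batch A and were low: Pappa averaged 8.57 and 7.04 CPM in the Sox2-negative cells of batches A and B, Pappa2 7.87 and 17.5 CPM, and Igfals 2.64 and 3.57 CPM in the Sox2-positive cells. Of the 89 Igfals counts in batch A Sox2-positive libraries, 53 were in library 6, and 2 libraries were at 0. Pappa ran from 3 to 101 counts in batch A Sox2-negative libraries. The populations overlapped in batch A for Igfals and Pappa, and in batch B for Pappa2.

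**Figure D5:**
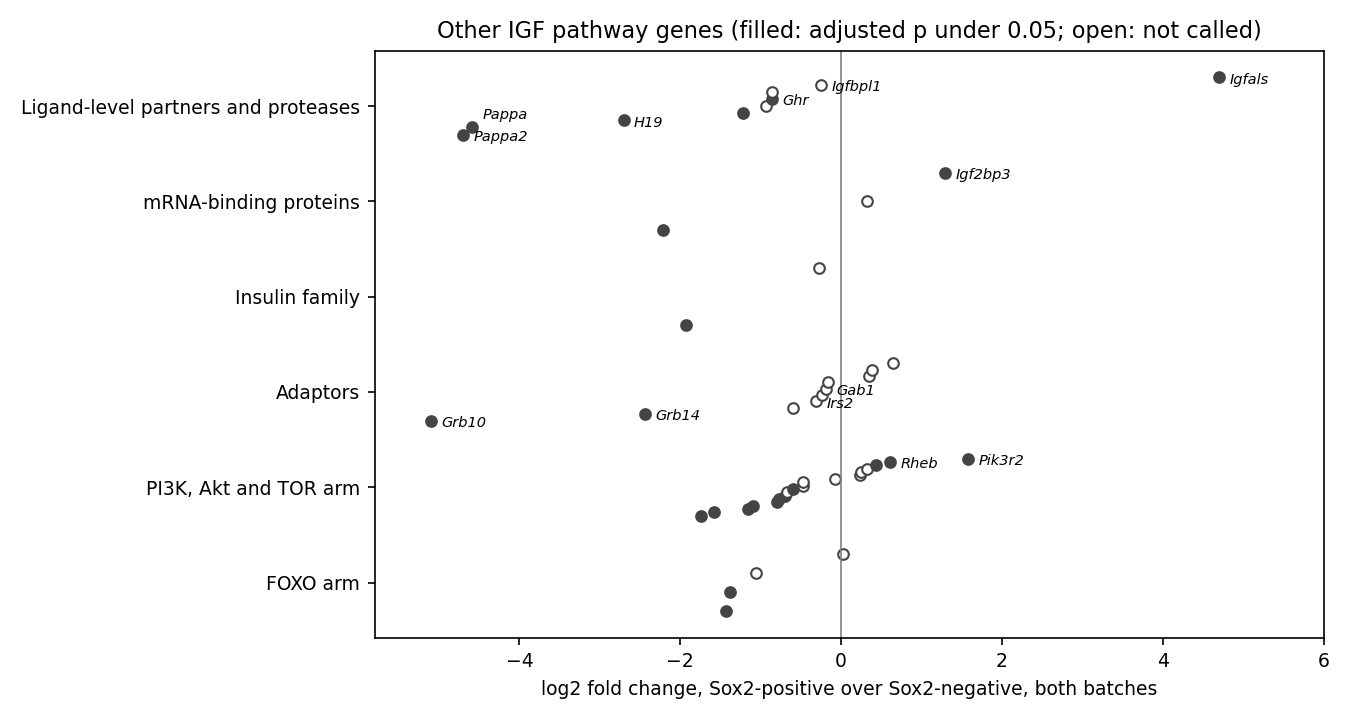
The log2 fold change of Sox2-positive over Sox2-negative cells across both batches is plotted for 46 other pathway genes, in 6 rows by their place in the pathway; filled points passed an adjusted p under 0.05. Named are the genes described in the text, from Grb10 at -5.10 to Igfals at 4.70.

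The interaction passed for 6 of 46 pathway genes (2 larger and 4 smaller in batch B), against 7.04% of all genes. Grb10 was more reduced in batch B (interaction -3.69, SE 0.456, edgeR adjusted p 4.37e-06). Ghr, the growth hormone receptor, fell in batch A (log2 fold change -1.53, edgeR adjusted p 4.76e-05) and was not called in batch B (0.07, edgeR adjusted p 0.798), an interaction of 1.54 (SE 0.308, edgeR adjusted p 0.0019). Irs2, the receptor substrate, was not called in batch A (0.31, edgeR adjusted p 0.283) and fell in batch B (-0.92, edgeR adjusted p 0.000223), an interaction of -1.29 (SE 0.268, edgeR adjusted p 0.00271). Igfbpl1 (-3.15, edgeR adjusted p 0.0128), Gab1 (-1.16, edgeR adjusted p 0.0342) and Rheb (0.86, edgeR adjusted p 0.0294) had interaction calls too. Without batch B libraries 1 and 2 the interaction was 1.43 for Ghr (edgeR adjusted p 0.054) and -1.24 for Irs2 (edgeR adjusted p 0.0576). It was -2.935 for Igfbpl1 (edgeR adjusted p 0.126) and 0.55 for Rheb (edgeR adjusted p 0.398), and none of these 4 passed in this fit with fewer libraries. Leaving out single libraries ended the call of Gab1 for 8 libraries (edgeR adjusted p 0.0507 to 0.102; Sox2-negative 5 and Sox2-positive 1, 2 and 4 of batch A, and Sox2-negative 3 and Sox2-positive 4, 5 and 6 of batch B). It ended that of Rheb for 4 batch B libraries (0.0505 to 0.0829; Sox2-negative 1, 2 and 4 and Sox2-positive 2).

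Finally, the genes with the most similar pattern were found for each IGF gene as the smallest root mean square difference of mean-centred log2(CPM + 1) over the 23 libraries, among 11084 genes. This distance is a description over libraries that share batch and depth. Igfbp2 was nearest to Krt14, a basal epithelial keratin (0.328), and Spint2, an epithelial protease inhibitor (0.362). Igf2 was nearest to Wif1, a secreted Wnt inhibitor (0.54), and Dlk1 (0.565), and Igf1 to Tpm2 (0.557) and Elf4 (0.607). Igfbp6 also had Wif1 nearest (0.552), before Cp (0.594). Igf2r was nearest to Col27a1 (0.246) and Capns1 (0.247), Igf1r to Ube2q1 (0.317) and Taf10 (0.322), and Igfbp3 to Npnt (0.238) and Slc38a2 (0.264). Igfbp4 was nearest to Fscn1 (0.236) and the matrix protease gene Mmp14 (0.246), Igfbp5 to Sulf1 (0.398) and St5 (0.40), and Igfbp7 to Tm4sf1 (0.42) and Pcdh1 (0.614). For scale, the root mean square of the centred values themselves was 2.25 for Igf2, 1.69 for Igfbp2, 0.487 for Igfbp3, 0.424 for Igfbp4 and 0.399 for Igf1r. For genes that varied as little as the last 3 of these, a small distance need not mean a close match.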

How the data were processed

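RNA sequencing (Smart-seq2) was analysed in 23 libraries of 4 groups taken from the labels. The authors deposited 1 table of estimated counts per gene (expected counts, not scaled to depth); FastQC, Trimmomatic, Salmon and the mm10 build are named per the submitters' processing notes, without versions, and the annotation used is not given in the sources used here. Only 0.000436% of nonzero values were whole (within 1e-06) while column totals lay within 0.111 of whole numbers, so values were rounded before testing. Symbols came from GENCODE M21 (GRCm38), matching 99.5% of identifiers. Libraries of a group always differed by more than sampling noise (lowest chi-square over its degrees of freedom, 5.195).

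Tests used edgeR 4.0.16 in R 4.3.3: TMM scaling, filterByExpr with a minimum count of 10, the two-sided quasi-likelihood F test and Benjamini-Hochberg adjustment over all genes tested. Standard errors were taken as the size of the log2 fold change over the root of F. CPM used TMM-scaled totals. Alternatives were DESeq2 1.42.0, limma 3.58.1 (voom with quality weights), RLE and total-count scaling, 2 other filters, a replicate block, and leaving out libraries. The fits were run on simulated data in which few genes were changed, in both directions. Far more genes were called between the populations here, so that run cannot show how the scaling holds in this setting. Promoter windows came from RefSeq. All 10 IGF genes were named; pathway genes were named if among the 3 highest or 3 lowest called with 1 sign in the 3 fits, or with an interaction call; the 2 nearest genes of each were named among those with a mean of at least 10 CPM. The genes, lists and tests were chosen with earlier results of these data known.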

Additional observations from a re-analysis of the deposited data

Results flagged for a closer look

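In 40 groups of libraries (10 genes in 4 groups) the highest or lowest value was tested for standing apart from the rest of its group, which chance alone does in about 1 of 20, and 4 stood apart. Batch A Sox2-positive library 6 had 667.3 CPM of Igfbp2, with the next at 572.7. Batch B Sox2-negative library 3 had 816.8 CPM of Igfbp5, with the next at 588.4. Batch A Sox2-positive library 4 had 3.084 CPM of Igfbp6, with the next at 0.956. Batch B Sox2-negative library 1 had 140.3 CPM of Igfbp7, with the next at 130.5.

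The difference between populations differed between the batches, by the interaction test (log2, batch B minus batch A), for 4 IGF genes: Igf1 (1.64, edgeR adjusted p 0.0409), Igf2 (0.77, edgeR adjusted p 0.00578), Igfbp5 (1.42, edgeR adjusted p 4.07e-06) and Igfbp7 (-2.04, edgeR adjusted p 2.49e-08). It did so for 6 pathway genes as well: Igfbpl1 (-3.15), Ghr (1.54), Irs2 (-1.29), Grb10 (-3.69), Gab1 (-1.16) and Rheb (0.86).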

How the results depend on the processing

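For the 10 IGF genes, 1102 of 1150 values with 1 library left out and 422 of 450 under the other alternatives kept their direction and their side of the threshold. With 1 library left out, the IGF genes called numbered 8 to 9 over both batches, 9 in batch A, 8 to 9 in batch B, 3 to 4 for the interaction and 5 between batches in each population. Over all genes, the interaction calls numbered 1210, against 481 without batch B libraries 1 and 2, a fit with fewer libraries, and 557 with a replicate block. The calls between batches in Sox2-negative cells numbered 1924, against 754 without these libraries. Those in Sox2-positive cells numbered 1785, against 1159 without them and 3313 with limma-voom.

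Signs turned for values near 0, and the cause was not tested. For Igf1r in batch A the value was 0.0461 with total-count scaling, 0.02999 with no low-count filter, 0.00671 with the replicate block and -0.15 to 0.10 with 1 library left out. For Igf1r between batches in Sox2-positive cells it was 0.0108 with no low-count filter, 0.00075 with a mean of at least 10 counts, 0.0705 without batch B libraries 1 and 2 and -0.10 to 0.0684 with 1 left out. For Ghr in batch B it was -0.0654 without these libraries and -0.0658 to 0.27 with 1 left out. For Igfbp2 between batches in Sox2-positive cells it was -0.0233 with total-count scaling. The Igfbp6 interaction, -0.00 with all libraries, was 0.0534 with DESeq2, 1.08 with limma-voom, 0.0373 with RLE size factors, 0.0568 with total-count scaling, 0.0105 with no low-count filter, 0.0378 with a mean of at least 10 counts, 0.16 without batch B libraries 1 and 2, 0.67 with the replicate block and -0.27 to 1.34 with 1 left out.

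The labels do not say whether equal library numbers pair the populations. Over 11092 genes, deviations of equal numbers correlated at -0.04035 to 0.00883 in batch A and at 0.001525 to 0.07495 in batch B. Of the 10 numbers 2 correlated best with their own, numbers 2 and 3 of batch B. Correlations this weak cannot decide whether numbers mark pairs. The block gave 8, 9, 8 and 3 IGF genes called over both batches, in A, in B and for the interaction. With it the calls of Igf1r (-0.40, edgeR adjusted p 0.117) and Gab1 (0.0709) in batch B were lost, as were the interaction calls of Igf1 (0.0515), Igfbpl1 (0.0868), Irs2 (0.0558), Gab1 (0.158) and Rheb (0.0605). Low counts limit Igfbp6 in Sox2-positive cells.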
